A study of Rattus norvegicus with 8 samples.

Results

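The collagen, laminin and integrin genes were taken as a set from the arrays of this rat hippocampal culture study. A gene was a member if the platform annotation gave its probe set exactly 1 symbol and that symbol named a collagen chain (Col, a number, a and a number), a laminin chain (Lama, Lamb or Lamc and a number) or an integrin chain (Itga or Itgb with a number or a letter). Itgam and Itgbl1 were left out by this rule, Itga2b was read as matching it, and proteins that bind integrins, such as Itgb1bp1, were not. The rule found 72 genes out of 14217 with a single symbol, which were 41 collagens, 10 laminins and 21 integrins, on 105 probe sets. No measured difference chose them, but each of the 24 genes with more than 1 probe set is represented by the one with the highest mean signal.

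Collagens are triple-helical proteins that build fibrils in connective tissue and networks in basement membranes. Laminins are cross-shaped trimers of an alpha, a beta and a gamma chain, and with type IV collagen they form the basement membranes of vessels and meninges. Integrins are receptors of an alpha and a beta chain that bind these matrix proteins or, on leukocytes and microglia, other cells and complement fragments. In the brain, fibrillar collagens belong mainly to meninges and vessel walls, and the leukocyte integrins to microglia and other myeloid cells.

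Total RNA came from rat hippocampal slice cultures, explants kept alive in a dish, from which the pyramidal cell fields CA1 and CA3 had been subdissected. Per the labels, each of the 8 arrays holds 15 subdissected cultures at 7 days. The groups are CA1 control (3 arrays), CA3 control (3 arrays), CA1 lesion (1 array) and CA3 lesion (1 array). In the labels the controls of each field are numbered 1 to 3, and both lesion arrays carry the number 1. The labels give no strain, age, sex or agent, and they do not say how the lesion was made or when the count of days began.

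Signal intensities were similar across the 8 arrays, with medians from 560 to 814 and pairwise correlations of 0.857 to 0.931 over the probe sets tested (probe sets are no independent replicates). The 3' to 5' signal ratio for Gapdh, a measure of RNA degradation, ran from 3.71 to 5.23 and was highest in the CA3 lesion array. The field labels fitted their markers, with 4 of 6 CA1 pyramidal markers lower in CA3 controls and 2 of 4 CA3 markers higher by limma adjusted p. All levels below are log2(intensity + 16), all differences are on that scale, and no gene's level is set against another gene's, since probe sets differ in brightness.

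Of the 72 genes, 50 passed the filter on mean signal (24 collagens, 9 laminins and 17 integrins) and were tested together with all other probe sets, 18625 in all. Among the 50, 0 differed between CA3 and CA1 controls by limma adjusted p, where 0.526% of all probe sets tested did. Without adjustment, 3 of the 50 were under 0.05, against 8.31% of all probe sets. The 4 lesion comparisons described below also gave 0 of 50 by limma adjusted p, against 0% of all probe sets in each.

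The other 22 genes lay under the filter, at mean levels from 6.47 to 8.29. They were 17 collagens (Col4a4, Col5a3, Col6a2, Col6a5, Col6a6, Col7a1, Col8a1, Col8a2, Col9a1, Col10a1, Col14a1, Col17a1, Col20a1, Col23a1, Col24a1, Col26a1 and Col27a1), the laminin chain Lamb3, and the integrin chains Itga1, Itga9, Itgad and Itgb6. On single arrays their levels ran from 5.19 to 10.26. With no filter all 72 genes were tested, and 0 passed in any of the 5 comparisons.

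**Figure D1:**
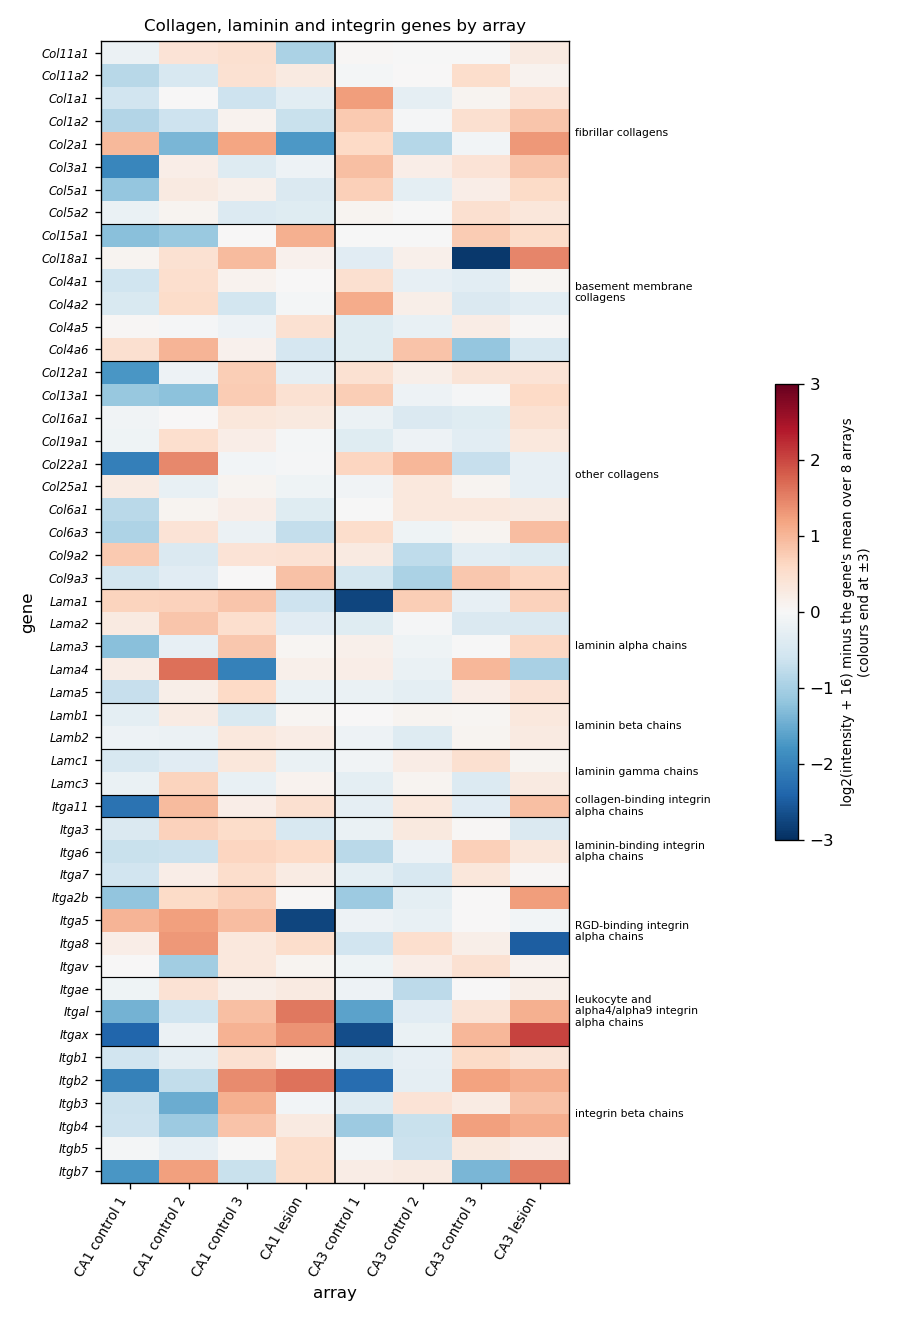
Each row is 1 of the 50 genes past the filter and each column 1 array, with colour for log2(intensity + 16) minus the gene's mean over the 8 arrays. Itgb2, Itgal and Itgax are blue in control 1 of both fields and red in control 3 and the lesion arrays, and the CA1 control 1 column is the lowest of the 8 arrays for 18 of the 50 genes.

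Single arrays set much of the pattern. CA1 control 1 was the lowest of the 8 arrays for 18 of 50 genes (36%), whereas it was the lowest for 12.8% of all probe sets tested. These 18 included the fibrillar collagens Col1a2, Col3a1, Col5a1 and Col11a2, the type VI chains Col6a1 and Col6a3, and the laminin chains Lama3, Lama5 and Lamc1. Control 3 was the highest control in both fields for 17 of the 50 genes (34%), against 17.1% of all probe sets.

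The fibrillar collagens, which form the cross-striated fibres of connective tissue, had a median CA3 minus CA1 difference of 0.45 over the 8 of 11 genes past the filter, and 6 of the 8 lay higher in CA3. The median over all probe sets tested was -0.04. Without CA1 control 1 the median of the 8 genes was 0.26, and 5 of them lay higher in CA3. Here as elsewhere in bulk RNA, fewer cells of a type and less RNA per cell cannot be told apart. Col1a2, the second chain of type I collagen, had levels of 10.25, 10.49 and 11.23 in CA1 controls 1 to 3, and of 11.90, 11.08 and 11.61 in CA3 controls. Its groups overlapped, since CA1 control 3 lay above CA3 control 2. The difference was 0.88 ± 0.32 (SE; n = 3 in each field; adjusted p = 0.490 by limma), or 1.84-fold, and 0.49 without the controls numbered 1 of both fields. The other probe set of Col1a2 differed by 1.28 (limma adjusted p = 0.254). It was at 9.95, 10.61 and 9.43 in CA1 controls and at 11.60, 10.87 and 11.34 in CA3 controls, without overlap.

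Col3a1, the chain of type III collagen that accompanies type I in soft tissue and vessel walls, had 9.34, 11.51 and 10.91 in CA1 controls, against 12.21, 11.50 and 11.71 in CA3 controls. The low CA1 control 1 carried much of the difference of 1.22 ± 0.47 (SE, n = 3 per field, limma adjusted p = 0.531), which was 0.59 without that array. Col1a1, the first chain of type I collagen, stood at 11.87 in CA3 control 1 and between 9.99 and 10.71 in the other 5 controls. Its difference was 0.75 ± 0.40 (SE, n = 3 per field, adjusted p = 0.664 by limma), 0.58 by its other probe set and 0.30 without CA3 control 1. Col5a1 and Col5a2, chains of the type V collagen that regulates fibril diameter, differed by 0.45 and 0.36. Col5a1 was at 8.69 in CA1 control 1, the lowest array, and without that array its difference was -0.00096. Col5a2 ran from 11.79 to 12.27 in CA1 controls and was at 12.29, 12.18 and 12.67 in CA3 controls, of which control 2 fell within the CA1 range. Of the minor fibrillar chains, Col11a2 differed by 0.45, while Col11a1 (-0.23) and the cartilage collagen Col2a1 (-0.38) lay lower in CA3.

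Markers of fibroblasts and meninges also lay mostly higher in CA3. Of this list of 10 genes all passed the filter, 8 lay higher in CA3, and 2, Ptgds and Islr, passed by limma adjusted p. The summed intensity of the list was 14559 to 20904 in CA1 controls and 40735 to 42699 in CA3 controls, a sum in which Ptgds weighs heavily, and no marker was at 0. Dcn, a fibroblast proteoglycan of the same list, lay the other way, at 10.73, 11.42 and 9.88 in CA1 controls and 7.83, 9.36 and 8.87 in CA3 controls. The part of these cells in the collagen differences was not tested.

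**Figure D2:**
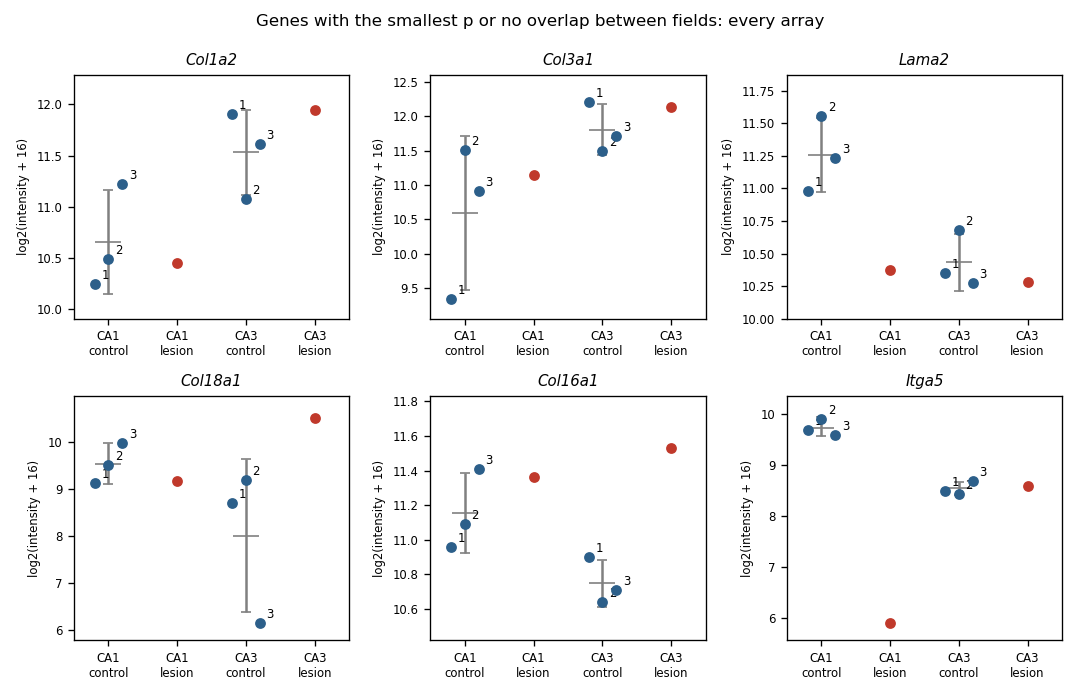
Each panel shows log2(intensity + 16) of 1 gene on every array, with controls in blue and numbered as in the labels, lesion arrays in red, and grey bars for the control mean ± SD (n = 3). Lama2, Col16a1 and Itga5 do not overlap between CA1 and CA3 controls, whereas Col1a2, Col3a1 and Col18a1 do, and CA3 control 3 stands far below the other arrays for Col18a1.

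The basement membrane collagens showed no shared direction between fields, with 2 of 6 higher and 4 lower in CA3. Col4a1 and Col4a2 encode the chains of the most widespread type IV collagen and are neighbours in the genome, transcribed away from each other. Their promoter windows, 250 bases before to 50 after each RefSeq start in the GRCr8 assembly, overlap by 176 bases on chromosome 16, from 84885471 to 84885646. They are shown because the pair is read from 1 stretch of DNA, with those of Col1a2 and Lama2, the genes with the smallest p between fields. Each is printed 5′ to 3′ on its gene's strand, with CCAAT boxes (CCAAT, or ATTGG for the other strand) and GC boxes (GGGCGG, or CCGCCC for the other strand) in capitals. The windows are chr16:84885347-84885646 (plus strand) for Col4a1, chr16:84885471-84885770 (minus strand) for Col4a2, chr4:33518307-33518606 (plus strand) for Col1a2 and chr1:19491896-19492195 (plus strand) for Lama2.
Col4a1: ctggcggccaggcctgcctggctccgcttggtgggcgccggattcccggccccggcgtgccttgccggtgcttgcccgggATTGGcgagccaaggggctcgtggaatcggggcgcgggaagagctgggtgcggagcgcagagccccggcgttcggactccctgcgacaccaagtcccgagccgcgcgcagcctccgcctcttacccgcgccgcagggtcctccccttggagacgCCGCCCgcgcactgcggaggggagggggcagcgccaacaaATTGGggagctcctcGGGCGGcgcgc
Col4a2: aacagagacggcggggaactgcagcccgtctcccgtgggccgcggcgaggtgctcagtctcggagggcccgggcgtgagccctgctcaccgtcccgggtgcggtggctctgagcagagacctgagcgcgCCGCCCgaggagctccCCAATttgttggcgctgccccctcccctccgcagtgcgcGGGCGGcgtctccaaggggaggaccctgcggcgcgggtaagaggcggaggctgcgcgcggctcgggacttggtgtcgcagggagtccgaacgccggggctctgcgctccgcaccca
Col1a2: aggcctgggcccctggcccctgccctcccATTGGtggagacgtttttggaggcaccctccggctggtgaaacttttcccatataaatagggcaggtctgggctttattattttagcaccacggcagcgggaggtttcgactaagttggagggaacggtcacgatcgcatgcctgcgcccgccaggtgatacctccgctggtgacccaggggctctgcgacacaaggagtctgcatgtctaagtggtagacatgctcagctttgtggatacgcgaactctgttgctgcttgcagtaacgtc
Lama2: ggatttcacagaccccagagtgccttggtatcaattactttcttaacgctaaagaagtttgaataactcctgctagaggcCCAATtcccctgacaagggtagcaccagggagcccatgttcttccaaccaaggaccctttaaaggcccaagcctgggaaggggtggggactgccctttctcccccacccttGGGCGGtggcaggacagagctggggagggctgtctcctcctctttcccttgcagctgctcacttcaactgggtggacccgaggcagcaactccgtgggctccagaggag

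A CCAAT box and 2 GC boxes lie in the stretch that Col4a1 and Col4a2 share, and the other CCAAT box of Col4a1 lies outside it. The table of promoters held 55 of the 72 genes. A CCAAT box on either strand was in 14 of these 55 windows (25.5%) and in 37.5% of all 33469 windows of the same length. A GC box was in 30 of 55 (54.5%) and in 33.1% of all windows. Members were counted by a single window per gene, while the windows of the whole set were not reduced in this way. The motifs did not overlap each other in the windows printed, and a match of letters is not evidence of a bound factor.

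Levels of the pair ran partly together. Col4a1 was at 10.63, 11.74 and 11.33 in CA1 controls and at 11.72, 10.99 and 10.93 in CA3 controls. Col4a2 was at 9.46, 10.47 and 9.37 in CA1 controls and at 11.04, 10.11 and 9.49 in CA3 controls. For both genes CA1 control 2 and CA3 control 1 were the highest of the 8 arrays, and the fields overlapped. The differences were -0.02 ± 0.33 for Col4a1 and 0.45 ± 0.48 for Col4a2 (SE, n = 3 per field, with limma adjusted p = 0.994 and 0.840). Without CA3 control 1 that of Col4a2 was 0.036. The other probe set of Col4a1 differed by 0.75, and by it the fields did not overlap. It reached at most 9.66 in CA1 controls and at least 9.70 in CA3 controls.

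Col4a5, an X-linked type IV chain, lay between 11.86 and 12.45 in all 6 controls, with a difference of -0.07 ± 0.21 (SE, n = 3 per field, limma adjusted p = 0.954). Col18a1, a vessel collagen from which the fragment endostatin is cut, was at 9.13, 9.51 and 9.99 in CA1 controls and at 8.70, 9.19 and 6.14 in CA3 controls. CA3 control 3 alone was low, and the difference of -1.53 ± 0.79 (SE, n = 3 per field, limma adjusted p = 0.648) was -0.60 without it. With all probe sets of Col18a1 averaged it was 0.0032. Col15a1, its relative, and Col4a6 differed by 1.05 and -0.77.

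Among the other collagens, 7 of 10 genes past the filter lay higher in CA3, with a median of 0.23. Col6a1 and Col6a3, chains of the beaded type VI filaments, differed by 0.38 and 0.39, and Col12a1, which coats collagen fibrils, by 0.72. CA1 control 1 was the lowest array for all 3, and without it they differed by 0.069, 0.042 and 0.040. The family then split into 5 higher and 5 lower, with a median of -0.01. Col13a1 and Col25a1 are collagens anchored in the cell membrane. Col25a1, which is made by neurons, was nearly level, at 13.37, 12.90 and 13.20 in CA1 controls and 13.01, 13.45 and 13.22 in CA3 controls. Col13a1 ran from 7.90 to 9.89 in CA1 controls and from 8.99 to 9.88 in CA3 controls, overlapping, with a difference of 0.72.

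Across the 50 genes, by the probe set used for each, 0 lay higher in every CA3 control than in every CA1 control, against 6.06% of all probe sets. The other probe sets of Col1a2 and Col4a1 did lie higher in this way. By the probe sets used, 4 genes (8%) lay lower in every CA3 control than in every CA1 control, against 8.85%. The 4 were the fibril-associated collagens Col16a1 and Col19a1, the laminin chain Lama2 and the integrin chain Itga5. Col16a1 was at 10.96, 11.09 and 11.41 in CA1 controls and 10.90, 10.64 and 10.71 in CA3 controls, a gap of under 0.1 between the nearest arrays. Its difference was -0.41 ± 0.24, and that of Col19a1 -0.46 ± 0.27 (SE, n = 3 per field, with limma adjusted p = 0.693 and 0.695). A share of 8% is close to that of all probe sets.

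**Figure D3:**
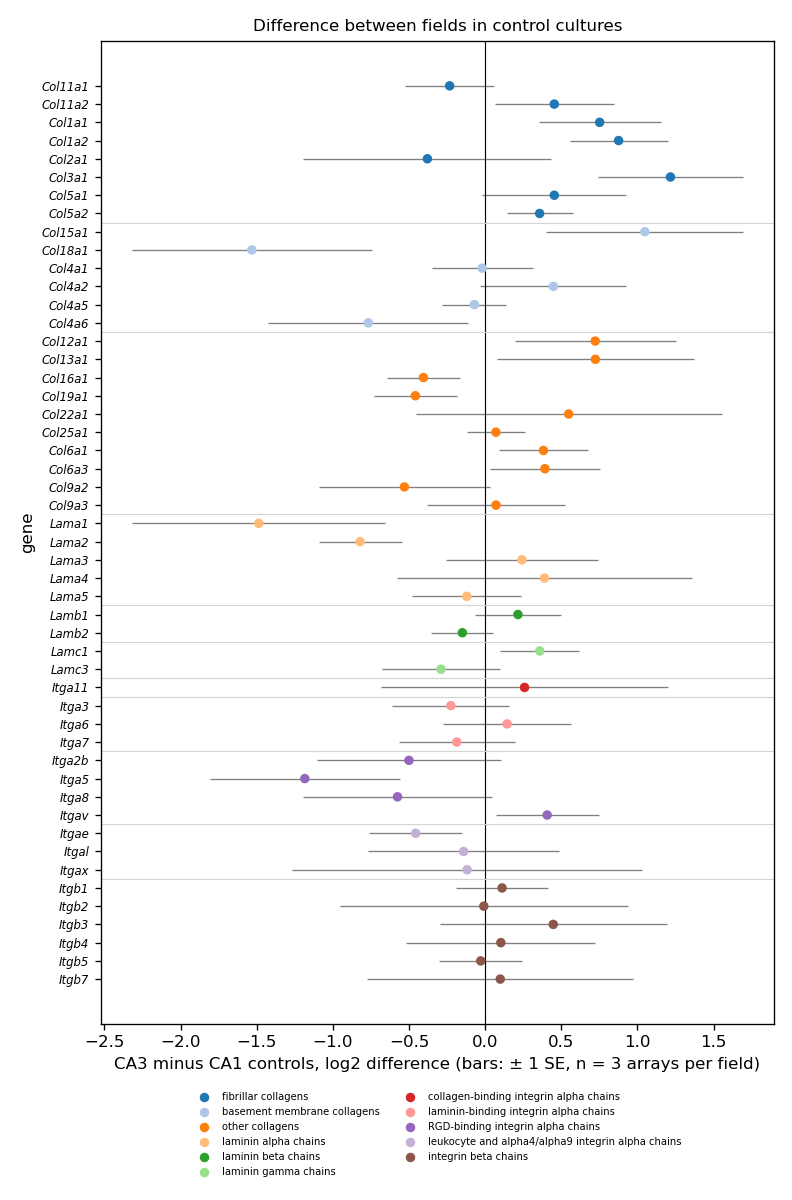
Points are CA3 minus CA1 control differences in log2 units for the 50 genes past the filter, coloured by family, and bars are ± 1 SE of the limma fit (n = 3 arrays per field). The plot has 6 of 8 fibrillar collagens to the right of 0, Lama2 lies at -0.82, and the widest bars belong to Itgax, Col22a1 and Lama4.

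By the probe sets used, the laminin chains differed little between fields apart from a pair of alpha chains. Lama2, the alpha chain of the laminin of muscle, nerve and brain vessels, was at 10.98, 11.56 and 11.23 in CA1 controls and at 10.35, 10.68 and 10.27 in CA3 controls. Every CA1 control lay above every CA3 control. The difference was -0.82 ± 0.27 (SE, n = 3 per field, limma adjusted p = 0.409), or 1.77-fold lower in CA3, and it ran from -0.96 to -0.67 over the 18 alternative analyses. Lama1, an alpha chain of embryonic and meningeal basement membranes, differed by -1.49 ± 0.83 (limma adjusted p = 0.678), and CA3 control 1 alone, at 6.22, lay far below the other 5 controls, which ran from 8.72 to 9.79. Without that array the difference was -0.49.

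Lamb2, a laminin beta chain, and Lamc1, a laminin gamma chain, overlapped between fields. Lamb2 was at 12.80, 12.78 and 13.25 in CA1 controls and at 12.79, 12.57 and 13.03 in CA3 controls, a difference of -0.15 ± 0.20 (SE, n = 3 per field, limma adjusted p = 0.877). Lamc1 was at 11.84, 11.98 and 12.67 in CA1 controls and at 12.21, 12.53 and 12.81 in CA3 controls, a difference of 0.36 ± 0.26 (limma adjusted p = 0.753). In both genes control 3 was the highest control of its field. The other probe set of Lamc1 differed by 0.40 and ran from 6.74 to 9.60 over the controls. Lama3, Lama4, Lama5, Lamb1 and Lamc3 differed by -0.29 to 0.39. A second probe set of Lama5 that passed the filter differed by 0.72, against -0.12 for the one used. Markers of endothelial and mural cells, which make much of this matrix, were dim: 5 of 11 passed the filter, and Pecam1, Kdr, Cldn5, Vwf, Rgs5 and Cspg4 did not. Of the 5, 4 lay lower in CA3, and the list summed to 2597 to 5408 in CA1 controls and 2392 to 3115 in CA3 controls, with no marker at 0. The part of these cells in the laminin values was not tested.

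The integrin chains had a median difference of -0.03 between fields, with 7 of 17 higher and 10 lower in CA3, a balance that turned with the scaling and with single arrays. Under quantile normalisation 11 lay higher and the median was 0.05. Without CA1 control 1, 2 lay higher (median -0.58), and without CA1 control 3, 11 did (median 0.40). Itga5, which pairs with Itgb1 as the main fibronectin receptor, was at 9.68, 9.89 and 9.59 in CA1 controls and at 8.50, 8.44 and 8.68 in CA3 controls. The groups did not overlap, and the difference was -1.18 ± 0.62 (SE, n = 3 per field, limma adjusted p = 0.660), or 2.27-fold lower in CA3. The SE is larger than the spread of these 6 arrays, since limma's moderated variance also draws on probe sets of like intensity. Itgav, the alpha chain of the vitronectin receptors, was at 11.67, 10.63 and 11.99 in CA1 controls and at 11.53, 11.88 and 12.11 in CA3 controls, which overlapped.

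For several integrins the controls of 1 field lay further apart than the means of the 2 fields. Itgb2 is the beta chain of the leukocyte integrins, and Itgal (the alpha chain of LFA-1) and Itgax (CD11c) are partners of it. Itgb2 had 8.02, 9.30 and 11.47 in CA1 controls 1 to 3 and 11.66 with the CA1 lesion, then 7.75, 9.77 and 11.24 in CA3 controls and 11.12 with the CA3 lesion. Itgal was at 8.81, 9.63 and 11.13 in CA1 controls, at 8.63, 9.89 and 10.62 in CA3 controls, and at 11.82 (CA1) and 11.30 (CA3) with a lesion. Itgax was at 6.12, 8.32 and 9.53, then 5.83, 8.29 and 9.49 in the controls, and at 9.85 and 10.52 in the lesion arrays. In each of the 3 genes control 1 was the lowest and control 3 the highest control of both fields. Between fields the 3 genes differed by -0.14 to -0.01, and under quantile normalisation by 0.0011 to 0.11.

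Against the controls of both fields together, the lesion arrays differed by 1.80 ± 0.95 for Itgb2, 1.77 ± 0.63 for Itgal and 2.26 ± 1.15 for Itgax (SE, 2 against 6 arrays, limma adjusted p = 0.796, 0.771 and 0.796). Itgal and Itgax were the 2 genes of the 50 (4%) with both lesion arrays above all controls of their field, against 7.98% of all probe sets. Itgax passed the filter only through its lesion arrays. Its control means were 7.99 in CA1 and 7.87 in CA3, under the 8.29 reached by genes left out. Its lesion difference and its place in this count are therefore not independent of the filter. Without the controls numbered 1 of both fields the difference was 0.95 for Itgb2 and 1.28 for Itgax. Against control 3 alone, the lesion array exceeded it by 0.20 in CA1 and fell below it by 0.12 in CA3 for Itgb2. The excess was 0.69 and 0.68 for Itgal, and 0.32 and 1.02 for Itgax. Against control 1, which shares its number with both lesion arrays, the excess was larger. It was 3.64 and 3.37 for Itgb2, 3.01 and 2.66 for Itgal, and 3.73 and 4.69 for Itgax.

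Microglia and macrophage markers were high in the same arrays as these chains. All 13 were on the array and 10 passed the filter, with Itgam, Ptprc and P2ry12 below it, and all 10 lay higher in the mean lesion difference (median 2.47, 0 by limma adjusted p). Their summed intensity was 6851 to 79334 in CA1 controls, 7065 to 65284 in CA3 controls, and 112595 (CA1) and 83659 (CA3) with a lesion, with none at 0. Itgam, the CD11b chain that also pairs with Itgb2, was at 6.08, 6.37 and 10.04 in CA1 controls, 6.25, 5.89 and 9.50 in CA3 controls, and 8.92 and 8.08 in the lesion arrays. Whether these cells account for the integrin values was not tested.

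**Figure D4:**
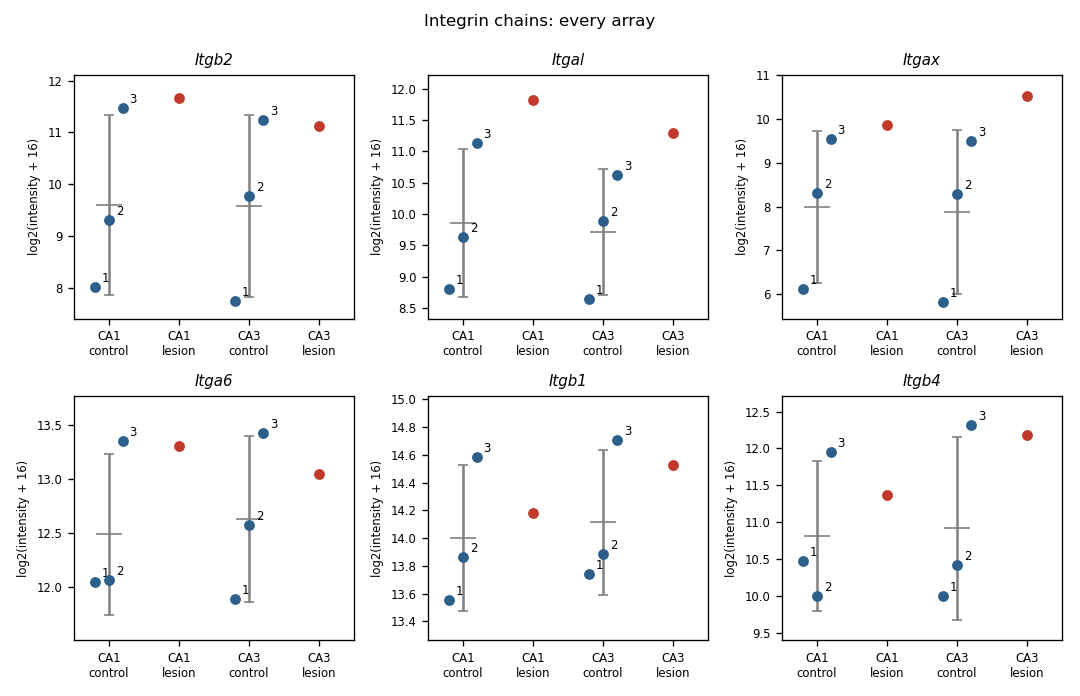
Each panel shows log2(intensity + 16) of 1 integrin chain on every array, with numbered controls in blue, lesion arrays in red, and grey bars for the control mean ± SD (n = 3). Control 3 is the highest control of both fields in all 6 panels, and both red points lie above it only for Itgal and Itgax.

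Laminin-receptor chains showed control 3 in the same place. Itga6 pairs with Itgb1 or Itgb4 as a laminin receptor. It was at 12.05, 12.07 and 13.35 in CA1 controls, at 11.89, 12.57 and 13.43 in CA3 controls, and at 13.30 (CA1) and 13.05 (CA3) with a lesion. Itgb4 was at 11.96 in CA1 control 3 and 12.32 in CA3 control 3, at most 10.48 in the other 4 controls, and at 11.37 and 12.19 in the lesion arrays. For both chains each lesion array lay below control 3 of its field and above the other controls. Itgb1, the common beta chain of matrix receptors, was at 13.56, 13.87 and 14.58 in CA1 controls, at 13.74, 13.89 and 14.71 in CA3 controls, and at 14.18 and 14.53 in the lesion arrays. The mean lesion differences were 0.62 ± 0.42 for Itga6, 0.91 ± 0.62 for Itgb4 and 0.30 ± 0.30 for Itgb1 (SE, 2 against 6 arrays, limma adjusted p = 0.812, 0.812 and 0.867). Without the controls numbered 1 these were 0.32, 0.60 and 0.094. Without the CA3 lesion array they were 0.55 for Itgb4 and 0.18 for Itgb1. Another probe set of Itga6 that passed the filter differed by 0.14, and that of Itgb1 by 0.35.

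Oligodendrocyte markers were high in the same arrays. All 8 measured passed the filter and lay higher in the mean lesion difference (median 1.70, 0 by limma adjusted p). In CA1, controls 1 to 3 had summed intensities of 62383, 297525 and 668142. In CA3 these were 80802, 276406 and 503344, with 620224 (CA1) and 682564 (CA3) in lesion arrays, with none at 0. Their part in the integrin values was not tested.

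Among the other integrin chains, Itga2b, Itga7, Itgav and Itgb5 also had control 3 as the highest control of both fields. Itga7, a laminin receptor chain of muscle, was at 9.69, 10.48 and 10.81 in CA1 controls with 10.51 in the lesion array, and at 9.99, 9.80 and 10.62 in CA3 controls with 10.30. Itga11, a collagen receptor chain, was at 6.20 in CA1 control 1 and between 8.08 and 9.38 in the other controls. Itgae, which pairs with Itgb7 to bind E-cadherin, ran from 9.84 to 11.05 in the controls and was at 10.90 and 10.81 in the lesion arrays. By the probe sets used, Itga7 and the widely expressed Itgb5 differed between fields by -0.19 and -0.03, and their controls overlapped. Other tested probe sets differed by -0.44 for Itga7 and -0.55 for Itgb5. A further probe set of Itga7, under the filter, ran from 7.92 to 8.50 in CA1 controls and from 6.30 to 6.84 in CA3 controls. That of Itgb5, also under the filter, overlapped between fields.

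For the mean lesion difference over both fields, 3 of 50 genes were under 0.05 without adjustment, against 6.41% of all probe sets. In CA1 alone the count was also 3, against 3.63%, and in CA3 alone 3, against 4.68%. The difference of the CA3 and CA1 lesion effects, tested itself, gave 2, against 3.09%. Each lesion group is a lone array, so its own spread was not measured, and the test takes it to vary like the controls. The lesion comparisons share their controls with the comparison of fields.

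In CA1, the lesion array lay above all 3 controls for 7 of 50 genes (21.2% of all probe sets did) and below them for 7 (24.8% of all probe sets). In CA3 it lay above for 19 (29.7% of all) and below for 4 (24.8% of all). The 19 included Col1a2, Col6a3, Col16a1 and Col18a1 among the collagens, 5 laminin chains (Lama3, Lama5, Lamb1, Lamb2 and Lamc3), and Itga2b, Itgb3 and Itgb7. Col1a2 lay only 0.04 above CA3 control 1, its highest CA3 control. By its other probe set it was at 11.56, within the CA3 controls, which ran from 10.87 to 11.60. The median CA3 lesion difference was 0.36 over the 50 genes and 0.05 over all probe sets. In CA1 the medians were 0.15 and 0.01. The filter used mean signal over all 8 arrays, lesion arrays included, so these counts and medians are not independent of it. Itgax and Itga11, both among the 19, had CA1 control means of 7.99 and 8.07, under the 8.29 reached by genes left out. In CA3 controls their means were 7.87 and 8.32. Below the controls of their field in both lesion arrays was 1 gene, the laminin receptor chain Itga3 (8.03% of all probe sets).

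The most negative lesion difference in each field belonged to an RGD-binding integrin, so called for the short peptide motif it recognises. Itga5 was at 5.91 in the CA1 lesion array, below the lowest CA1 control at 9.59, while the CA3 lesion array at 8.59 lay within its controls. The CA1 lesion difference was -3.81 ± 0.88 (SE, 1 against 3 arrays, limma adjusted p = 0.806), that in CA3 was 0.05 ± 0.88, and the difference between them 3.86 ± 1.25. Itga8, which binds nephronectin with Itgb1, showed the reverse. It was at 6.42 in the CA3 lesion array and at 8.31, 9.38 and 9.05 in CA3 controls, while the CA1 lesion array, at 9.40, lay among its controls at 9.08, 10.19 and 9.21. Its differences were -2.50 ± 0.88 in CA3 (limma adjusted p = 0.892) and -0.09 ± 0.88 in CA1. The mean lesion differences of the pair, -1.88 for Itga5 and -1.30 for Itga8, thus each came from 1 array. The second probe set of Itga8 was under the filter, at 6.92 in the CA3 lesion array and from 5.64 to 9.13 in CA3 controls, and Itga5 had no second one.

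Among the collagens tested, and by the probe sets used, the largest lesion differences were those of Col18a1 in CA3 and Col2a1 in CA1. Col11a1, a minor fibrillar chain, was at 9.50 in the CA1 lesion array and at 10.27, 10.86 and 10.93 in CA1 controls, a difference of -1.19 ± 0.41 (SE, 1 against 3 arrays, limma adjusted p = 0.999). A second probe set of Col11a1 differed by -1.57. In CA3, Col11a1 was at 10.72 in the lesion array and between 10.43 and 10.48 in controls, a difference of 0.26, and the 2 lesion effects differed by 1.45 ± 0.58. By the second probe set the CA3 lesion difference had the other sign, at -0.75, and the lesion effects differed by 0.82. Col2a1 was low with the CA1 lesion (7.06) and high with that in CA3 (10.07), and its controls ran from 7.42 to 9.95. Its lesion differences were -1.98 in CA1 and 1.41 in CA3, and these differed by 3.39 ± 1.63. Lama2 stood at 10.38 in the CA1 lesion array, below all CA1 controls and within the range of the CA3 controls, a difference of -0.88 ± 0.39 (limma adjusted p = 0.999).

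In CA3, Col16a1 was at 11.53 in the lesion array, above all its controls, a difference of 0.79 ± 0.34 (SE, 1 against 3 arrays, limma adjusted p = 0.937). Col18a1 was at 10.51 against 8.70, 9.19 and 6.14, a difference of 2.50 ± 1.12 that was 1.56 without CA3 control 3. The other probe set of Col18a1, under the filter, was at 9.56 in the CA3 lesion array and at 9.47, 7.81 and 9.50 in CA3 controls. Itga2b, the alpha chain of the platelet fibrinogen receptor, was at 10.62 against 8.28, 9.08 and 9.38, a difference of 1.71 ± 0.85 (limma adjusted p = 0.937). In CA1 its lesion array, at 9.42, lay within the controls. Col9a3, a fibril-associated chain also found in oligodendrocyte precursors, was at 9.56, 9.79 and 10.14 in CA1 controls and 9.60, 9.18 and 10.93 in CA3 controls. Its lesion arrays stood at 11.01 and 10.78, a mean lesion difference of 1.03 ± 0.45 (SE, 2 against 6 arrays, limma adjusted p = 0.771).

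**Figure D5:**
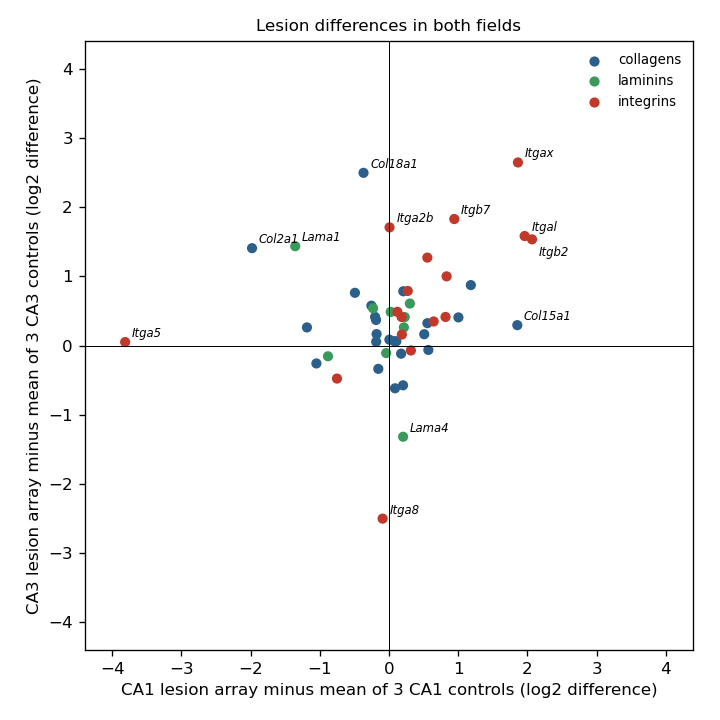
Each point is 1 of the 50 genes past the filter, with the CA1 lesion array minus the mean of 3 CA1 controls on the horizontal axis and the same for CA3 on the vertical axis, in log2 units. Itgb2, Itgal and Itgax lie at the upper right, Itga5 stands apart at -3.81 in CA1 and 0.05 in CA3, and Itga8 at -0.09 in CA1 and -2.50 in CA3.

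Genes that make, cut or bind these proteins gave 0 calls as well. Of the enzymes and chaperones of collagen synthesis and crosslinking, 17 of 25 were past the filter, 0 passed by limma adjusted p in any of the 5 comparisons, and the median field difference was -0.08. P4ha2, a prolyl hydroxylase subunit for collagen, was at 12.57, 12.15 and 12.40 in CA1 controls and at 11.47, 11.43 and 11.71 in CA3 controls, without overlap (-0.84 ± 0.21, SE, n = 3 per field, limma adjusted p = 0.175). Colgalt1, which adds galactose to collagen, differed by 0.66 between fields and by 0.58 in the mean lesion difference, and the procollagen protease gene Bmp1 by 0.75 in the latter. Among matrix proteases and their inhibitors, 13 of 17 were tested and 0 passed. Mmp2, a gelatinase that cuts type IV collagen, was at 10.76, 8.90 and 10.10 in CA1 controls and at 11.90, 11.21 and 11.46 in CA3 controls, also without overlap (1.61 ± 0.43, limma adjusted p = 0.234). Timp4 differed by -1.11 between fields, and in the mean lesion difference Mmp14 stood at 2.05 ± 0.88 and Timp2 at 0.46.

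Of the other basement membrane proteins and integrin ligands, 16 of 21 were tested and 0 passed. Fbln1 and Nid1 had the smallest p of the list between fields, at 0.48 and -0.46. Tnc, the ligand tenascin C, stood at 10.99 (CA1) and 11.92 (CA3) with a lesion, below all 6 controls, which ran from 12.03 to 12.78 (mean lesion difference -0.96 ± 0.23, SE, 2 against 6 arrays, limma adjusted p = 0.673). Spp1, osteopontin, differed in the same comparison by 1.49 ± 0.66 and was high in control 3 of both fields too, at 13.18 and 13.04. Of the integrin adaptors, 27 of 29 were tested and 0 passed. Actn1, which links integrins to actin, differed by -0.52 between fields and by -0.61 in the mean lesion difference, the adaptor Tns1 by -1.59 between fields, and Cib1 by 0.79 in the mean lesion difference.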

How the data were processed

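The deposited values are linear signal intensities, 1 per probe set and array. How the authors summarised and scaled them is not given here; the 2% trimmed means of the arrays, 2459 to 2463, are close to each other. Intensities were converted to log2(value + 16). Of 31099 probe sets, 57 control probe sets and those under the 40th percentile of mean log2 value were left out, and 18625 were tested.

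A model with 1 coefficient per group was fitted across all these probe sets with limma 3.58.1 in R 4.3.3 (intensity trend in the variances, 4 residual degrees of freedom, all from controls). P-values were adjusted by Benjamini-Hochberg over all probe sets tested, with a threshold of 0.05. The labels do not say that samples came from separate animals or preparations, so p-values measure only how far these samples differ, and that spread may be technical. Array number limits precision.

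The members and lists were chosen with earlier results of these data known. Genes are given by array if they passed in any fit, had 1 of the 4 smallest p in a comparison or the highest mean signal of their family, and pathway genes by the smallest p. Col1a1, Col4a1, Col4a2, Col13a1, Lama1, Dcn and Itgam were added after their values were seen. Itga7 is given by array as well, outside these rules. As alternatives, the filter was dropped or set at the 60th percentile, and quantile normalisation, pseudocounts of 1 and 64, no intensity trend, the replicate number as a block, arrays left out, and all probe sets of a gene averaged were tried. Family medians and the other members' field differences without single controls were added after seeing the data. Symbols came from the platform annotation, and all 72 are in RefSeq's GRCr8 table. The files name no genome build.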

Additional observations from a re-analysis of the deposited data

How the results depend on the processing

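In 17 of 18 alternative analyses of the mean lesion difference, and in all 18 of the comparison of fields, 0 of the genes tested passed. The exception was the replicate block (the number of the sample as a term), under which 6 genes passed for the mean lesion difference (Itgb2 3.51, Itgal 2.84, Itgax 4.21, Itga6 1.20, Itgb4 1.54 and Itgb1 0.71), 3 in CA1 (Itgb2, Itgal and Itga6) and 3 in CA3 (Itgb2, Itgal and Itgb4), where 697, 258 and 310 of all probe sets passed. Both lesion arrays carry the number 1, so this block sets them mainly against control 1. By the rule used the numbers were not taken to pair the samples. The deviations of same-numbered controls correlated at 0.155, 0.0601 and 0.306 across probe sets, not all above 0.1. Each was nevertheless above every correlation between unlike numbers, which ran from -0.204 to 0.0556. Whether controls of the same number share a preparation was not tested.

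The mean lesion difference of Itga5 ran from -3.81 (CA3 lesion left out) to 0.052 (CA1 lesion left out), and the field difference of Col18a1 was 0.0032 with its probe sets averaged. Of 500 values of 30 gene results under alternatives, 486 kept direction and side of the threshold, 12 passed under the block and these 2 changed sign. Over all probe sets, 98 passed between fields, 0 without an intensity trend (1533 had an unadjusted p under 0.05), 56 with probe sets averaged, 358 with the block and 24 to 47 without single arrays numbered 1 or 2, and 4 without both controls numbered 1. For the mean lesion difference 166 passed without both controls numbered 3, and Itgb4 (1.55) and Itga6 (1.03) had limma adjusted p = 0.0527 and 0.0743 there.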
